A study of Mus musculus with 8 samples.

Results

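The peaks described here are those whose summit lay in a long repeat, defined as an unbroken stretch of soft-masked bases of at least 5 kb in the mouse genome (GRCm38/mm10) on chromosomes 1 to 19, X and Y. A soft-masked base is one that the assembly marks as repetitive, and such an unbroken stretch is called a run. Of 70192 peaks in 4 lists, 8684 had their summit in one of 14481 such runs. They comprised 2763 of 11010 peaks of the C29F4 list (25.1%), 4159 of 40813 of the ab9110 DMSO list (10.2%), 1331 of 16323 of the ab9110 dTAG list (8.15%) and 431 of 2046 of the input list (21.1%). Such runs made up 4.76% of the assembled bases, or 2.91% without chromosome Y. The input share was above both ab9110 shares, so a summit in a long repeat was not particular to the ChIP lists. The mask does not name repeat families, so runs were described by the open reading frames they held.

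The lists came from ChIP-seq (chromatin immunoprecipitation followed by sequencing) for EHMT2 in mouse embryonic stem cells (mESCs) of a BL6/129 hybrid background. All groups carried the same homozygous EHMT2-dTAG allele, in which a degron derived from FKBP12 and 2 copies of the hemagglutinin (HA) tag were joined to the end of the endogenous protein and an mCherry reporter follows behind a self-cleaving peptide, so that HA antibodies pull down EHMT2 and the degrader dTAG-13 removes it. Cells were treated for 24 h with DMSO or dTAG and fixed with DSG and formaldehyde. The study's culture conditions included a layer of mouse feeder cells, which lack the tag. The C29F4 list (HA antibody C29F4, DMSO) was called on 2 ChIP libraries merged into 1 set of reads, which the methods describe as independent clones. The ab9110 DMSO and ab9110 dTAG lists (HA antibody ab9110) came from 1 ChIP library each, and the input list from 1 library of dTAG-treated chromatin sequenced without pulldown. Each condition thus had 1 list, no difference between lists has a replicate check, and all intervals below are exact (Clopper-Pearson for shares, order statistics for medians) 95% intervals that cover counting error only. The lowest background value of a list, taken here as its depth, was 3.64 fragments per base in C29F4. It was 2.11 with DMSO and 1.23 with dTAG in the ab9110 lists, and 0.980 in input.

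EHMT2, also known as G9a, places the repressive H3K9me2 mark on chromatin together with its partner EHMT1. LINE-1 elements are retrotransposons that move by copying their RNA back into DNA. A full-length mouse LINE-1 begins with a promoter made of tandem repeat units called monomers, followed by ORF1, which encodes an RNA-binding protein, and ORF2, which encodes an endonuclease and reverse transcriptase. Many copies lack the 5′ end, since insertion often stops early, and the monomers of different subfamilies differ in length and sequence.

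To show what the summits looked like, the summit base with 100 bases on each side, called the summit window, was taken from each peak and grouped by sequence likeness (blastn, at least 80% identity over at least 160 bases), and a high-fold window of each of the largest groups is printed below. Of the C29F4 peaks in long repeats, 53.2% fell into the 3 largest of 185 groups, with 667, 462 and 342 peaks. Groups 4 and 5, with 212 and 139 peaks, were added after their values were seen, because group 5 differed from the larger groups in its overlap with other lists. Each sequence is RefSeq GRCm38 reference sequence, 5′ to 3′ on the strand of the repeat's reading frame, with every CpG in capitals.
C29F4 group 1, chr4:14679356-14679556, minus strand: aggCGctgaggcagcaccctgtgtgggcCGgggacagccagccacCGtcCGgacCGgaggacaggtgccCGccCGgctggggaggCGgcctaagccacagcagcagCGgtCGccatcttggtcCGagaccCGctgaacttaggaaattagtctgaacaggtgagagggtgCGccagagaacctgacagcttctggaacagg
C29F4 group 2, chr4:65990241-65990441, minus strand: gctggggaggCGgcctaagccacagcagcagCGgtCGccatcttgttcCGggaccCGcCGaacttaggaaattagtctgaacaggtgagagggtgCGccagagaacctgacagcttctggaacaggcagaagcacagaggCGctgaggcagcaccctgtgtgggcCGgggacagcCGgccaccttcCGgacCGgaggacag
C29F4 group 3, chr7:78416451-78416651, plus strand: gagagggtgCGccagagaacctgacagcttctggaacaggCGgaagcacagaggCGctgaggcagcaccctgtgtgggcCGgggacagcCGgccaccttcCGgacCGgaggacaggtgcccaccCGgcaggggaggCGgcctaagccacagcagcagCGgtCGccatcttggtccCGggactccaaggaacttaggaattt
C29F4 group 4, chr12:42629269-42629469, minus strand: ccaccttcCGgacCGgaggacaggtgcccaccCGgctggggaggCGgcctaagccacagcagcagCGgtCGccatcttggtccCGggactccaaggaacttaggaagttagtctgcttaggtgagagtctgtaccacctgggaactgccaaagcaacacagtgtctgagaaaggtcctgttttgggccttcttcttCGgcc
C29F4 group 5, chr17:4348115-4348315, minus strand: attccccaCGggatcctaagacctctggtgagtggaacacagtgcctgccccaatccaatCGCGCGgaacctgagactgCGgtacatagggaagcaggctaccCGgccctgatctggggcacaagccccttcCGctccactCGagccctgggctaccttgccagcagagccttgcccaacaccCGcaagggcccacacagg
dTAG group 1, chr1:158332246-158332446, plus strand: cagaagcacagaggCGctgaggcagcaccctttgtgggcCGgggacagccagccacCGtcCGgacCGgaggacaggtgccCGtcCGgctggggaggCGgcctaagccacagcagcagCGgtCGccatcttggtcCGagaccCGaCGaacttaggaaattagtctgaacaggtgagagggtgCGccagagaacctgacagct
Input group 1, chr5:16755752-16755952, minus strand: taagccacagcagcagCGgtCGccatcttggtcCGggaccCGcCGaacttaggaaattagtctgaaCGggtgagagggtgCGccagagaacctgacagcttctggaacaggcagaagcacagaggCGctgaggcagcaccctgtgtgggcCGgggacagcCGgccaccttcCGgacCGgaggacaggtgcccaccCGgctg
None of these windows lay on an annotated exon. C29F4 group 1 lay inside Lrrc69, group 2 inside Astn2 and group 3 inside Ntrk3. Groups 4 and 5 and the input window lay between genes.

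The windows of C29F4 groups 1 to 4, dTAG group 1 and input group 1 were alike in part: each aligned at 98.5% to 100% identity over 199 or more bases to the 800 bases around the group 1 summit. None of the 212 group 4 peaks lay in tandem sequence, as defined further on. Of the printed windows, C29F4 groups 1 and 2 and dTAG group 1 met that definition, at 86.3%, 73.7% and 86.1% identity. Groups 3, 4 and 5 and input did not, at 57.5%, 40.2%, 53.4% and 67.5%, so these windows are not called repeat units here. The group 5 window matched itself best at 199 bases. The group 5 window had no alignment of at least 100 bases at 80% identity to that stretch. The group 1 window had 13 CpG and 65.7% GC, and the group 5 window 9 CpG and 63.2% GC. A window matching group 1 was found in 3216 of the 14481 long runs (22.2%), of which 61.1% (59.4 to 62.8%) held a C29F4 summit, 68.1% an ab9110 DMSO summit, 31.3% an ab9110 dTAG summit and 4.76% an input summit. A window matching group 5 was found in 2903 runs (20.0%), of which 14.2% (12.9 to 15.5%) held a C29F4 summit, 32.3% an ab9110 DMSO summit, 3.07% an ab9110 dTAG summit and 4.96% an input summit. The 2 sequences were thus about equally common in long repeats, the ChIP lists had summits more often in runs with the first, and the input list had summits in nearly equal shares of both.

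The long repeats of the ChIP lists were LINE-1 elements by their reading frames. A LINE-1 frame was taken as an open reading frame of at least 300 codons that encodes Phe-Ala-Asp-Asp, the active-site motif of the LINE-1 reverse transcriptase. Runs with such a frame held 96.7% (96.0 to 97.3%) of the C29F4 peaks in long repeats. In the ab9110 lists the share was 91.8% (90.9 to 92.6%) with DMSO and 92.6% (91.1 to 94.0%) with dTAG, and in input 82.8% (78.9 to 86.3%). These runs made up 46.0% of the long-repeat bases, or 70.3% without chromosome Y. Runs whose frame held the retroviral motif Tyr-X-Asp-Asp made up 9.48% of the bases and held 0.326% of the C29F4 peaks in long repeats, 2.33% and 2.7% of those of ab9110 with DMSO and with dTAG, and 5.10% of those of input. Chromosome Y held 3224 of the long runs and 40.8% of the long-repeat bases, yet 0 C29F4, 2 ab9110 DMSO, 0 ab9110 dTAG and 1 input summit of the set, and whole lists had between 1 and 8 peaks there. Shares of bases are therefore given without Y where it matters.

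By run length, ChIP summits were concentrated in runs of 6 kb and longer, close to the length of a complete LINE-1. Runs of 5 to 8 kb held 91.7% of the C29F4 peaks in long repeats and runs above 8 kb held 8.25% (7.25 to 9.34%), against 9.94% of the bases without Y (41.5% with Y). In the ab9110 lists the share above 8 kb was 8.73% (7.89 to 9.63%) with DMSO and 9.47% (7.95 to 11.2%) with dTAG, and in input 6.73% (4.55 to 9.52%). The 2 length classes were thus filled roughly as their bases would have it outside Y, and the large difference lay within the 5 to 8 kb class.

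In finer steps, the C29F4 list had 2.68 summits per 100 runs at 5 to 5.5 kb, 3.12 at 5.5 to 6 kb, 19.5 at 6 to 6.5 kb and 46.7 at 6.5 to 7 kb. The ab9110 DMSO list went from 7.84 to 63.5 between the same end points, and ab9110 dTAG from 2.68 to 22.1. Input went from 1.44 to 4.94. Runs just short of the 5 kb minimum, at 4.5 to 5 kb, held 3.10 C29F4 summits per 100, close to the value just above it, so the minimum did not fall at a step in the data. Beyond 7 kb the 3 ChIP lists stayed between 15.9 and 56.6 summits per 100 runs up to 20 kb.

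**Figure D1:**
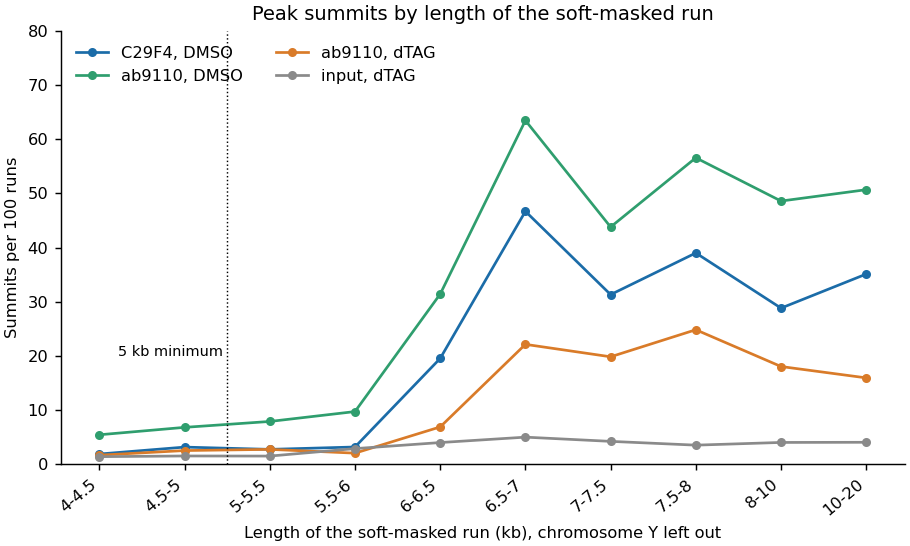
Summits per 100 soft-masked runs (y axis) against the length of the run in kb (x axis, bins of unequal width), with chromosome Y left out, for the 4 lists. Each point is 1 list and 1 bin and has no replicate error, and the dotted line marks the 5 kb minimum; the C29F4 line rises from 2.68 at 5 to 5.5 kb to 46.7 at 6.5 to 7 kb, while input stays between 1.33 and 4.94 over the lengths drawn, which end at 20 kb.

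Along the runs, ChIP summits lay at one end, upstream of the reverse transcriptase frame. Within 500 bp of a run end lay 53.8% (51.9 to 55.7%) of the C29F4 peaks in long repeats. The ab9110 lists had 62.1% (60.6 to 63.6%) there with DMSO and 57.7% (55.0 to 60.4%) with dTAG, against 20.2% (16.5 to 24.3%) of input peaks and 15.1% of the bases without Y. In the direction of the reference, both ends were used alike: for C29F4, 35.9% of summits lay in the first of 10 equal parts of the run and 34.9% in the last. Once each run was turned so that its LINE-1 frame read from left to right, 1 end remained.

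In these oriented runs, 94.8% (93.9 to 95.6%) of C29F4 summits lay upstream of the frame, where 38.7% of the bases lay. In the ab9110 lists 93.4% (92.6 to 94.2%) did with DMSO and 95.5% (94.2 to 96.6%) with dTAG. For input the share was 53.8% (48.5 to 59.0%). In oriented runs of 5 to 8 kb, the first of 10 equal parts held 73.9% (72.1 to 75.6%) of C29F4 and the last part 0.0408%, or 1 of 2453 summits. The first part held 77.7% and 78.3% of the ab9110 summits with DMSO and with dTAG, and 23.4% (18.9 to 28.4%) of those of input. Input summits were spread along the whole element, with 10.0% in the last part.

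**Figure D2:**
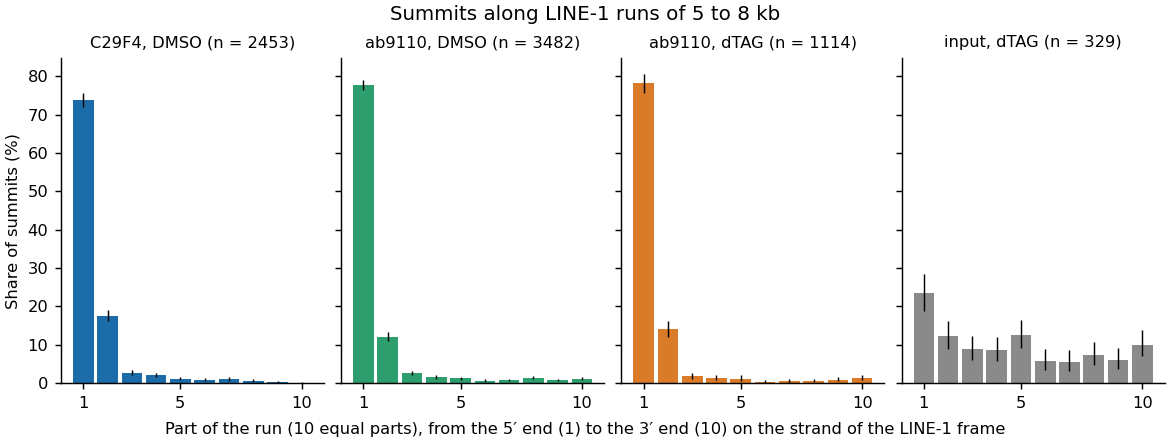
Share of summits (y axis, percent) in each of 10 equal parts of LINE-1 runs of 5 to 8 kb, turned so that the reverse transcriptase frame reads from left to right (x axis, parts counted from the 5′ end), with 1 panel per list and exact 95% intervals as error bars. The first part holds 73.9%, 77.7% and 78.3% in the ChIP lists and 23.4% in input.

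Runs that also held a first frame, of at least 300 codons on the same strand and ending within 500 bases of the reverse transcriptase frame, have the layout of ORF1 and ORF2. In them 91.6% (90.5 to 92.7%) of C29F4 summits lay upstream of the first frame, a stretch that held 20.5% of the bases. The share was 90.3% (89.3 to 91.3%) and 93.5% (91.9 to 94.9%) in the ab9110 lists with DMSO and with dTAG, and 38.4% (32.8 to 44.2%) in input. ORF2-like frames held 42.6% of the bases of these runs but 4.06% of C29F4 summits, 3.38% and 1.84% of ab9110 summits with DMSO and with dTAG, and 27.1% of input summits. Upstream summits sat a median of 479 bases (461 to 496) before the first frame for C29F4, and 575 (563 to 589) and 604 (567 to 634) in the ab9110 lists with DMSO and with dTAG. Most ChIP summits in runs with both frames thus lay between the 5′ end of the run and the first frame. Over the upstream summits of all LINE-1 runs of 5 to 8 kb, with or without a first frame, the median distances from the 5′ end were 428, 324 and 380 bases in the same order.

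Runs with a first frame and a long LINE-1 frame held ChIP summits more often than runs with a shorter LINE-1 frame. Of 3466 runs with a first frame and a LINE-1 frame of at least 1000 codons, 50.7% (49.0 to 52.4%) held a C29F4 summit, 64.8% (63.2 to 66.4%) an ab9110 DMSO summit and 26% (24.6 to 27.5%) an ab9110 dTAG summit. Of 3942 runs with a frame under 1000 codons, with or without a first frame, the shares were 15.1% (14.0 to 16.3%), 25.1% (23.8 to 26.5%) and 5.40% (4.72 to 6.16%). Input summits were in 5.05% (4.34 to 5.83%) of the first and 3.88% (3.30 to 4.53%) of the second. Among runs of 5 to 8 kb with a LINE-1 frame, a C29F4 summit stood in 7.47% (5.94 to 9.25%) of those with frames of 300 to 499 codons and in 53.2% (51.4 to 55.1%) of those with frames close to 1300 codons, the length of a complete ORF2. Among those with frames of at least 1000 codons, the share was 3.30% (0.685 to 9.33%) where under 1000 bases of the run lay upstream of the frame and 60.5% (56.1 to 64.7%) where 2500 bases or more did. None of the 57 runs with both frames on chromosome Y held a summit of any of the 4 lists, which allows a share of up to 6.27%.

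Runs inside genes and between genes did not differ much. Runs wholly inside a gene held 30.2% (28.5 to 32.0%) of the C29F4 peaks in long repeats, and runs touching no gene 68.4% (66.6 to 70.1%), where the bases without Y were 27.1% and 71%. The intergenic share was 68.5% (67.1 to 69.9%) and 66.3% (63.7 to 68.8%) in the ab9110 lists with DMSO and with dTAG, and 72.6% (68.2 to 76.8%) in input. Among runs with both frames, 52.5% (49.5 to 55.5%) of those inside genes and 50.3% (48.2 to 52.4%) of those between genes held a C29F4 summit, and the intervals overlap. For ab9110 DMSO the shares were 67.7% (64.8 to 70.5%) and 63.8% (61.9 to 65.8%), and for ab9110 dTAG 28.2% (25.5 to 31%) and 25.4% (23.6 to 27.2%). LINE-1 runs inside genes read along the gene's own strand in 37.4% (35.4 to 39.5%) of cases, and those with a C29F4 summit in 40.7% (37.1 to 44.2%).

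Peaks in long repeats were taller and wider than the other peaks of the DMSO lists. Fold is the pileup of fragments at the summit over the local background, each with a small constant added. It had a median of 4.88 (4.75 to 5.06) in the C29F4 list against 3.53 (3.51 to 3.58) for peaks elsewhere, with 53.0 against 25 fragments at the summit and a width of 1088 against 446 bp. The background was higher too, at 9.21 (9.03 to 9.73) against 6.25 fragments, and what part it has in the fold was not tested. For ab9110 DMSO the median fold was 4.07 (3.95 to 4.15) against 3.22, with 20.0 against 13.0 fragments. In the dTAG list the difference was small, with a fold of 3.82 (3.79 to 3.86) against 3.76 (3.76 to 3.78) and 12 fragments in both. Ranked within its own list, the median long-repeat peak stood at percentile 75.2 (73.8 to 77.2) in C29F4 and 66.2 (62.0 to 72.2) in input. In the ab9110 lists it stood at 78.7 (76.6 to 80.1) with DMSO and 52.7 (51.0 to 55.2) with dTAG. At q under 0.001 the input percentile was 39.6 (29.3 to 49.2, 63 peaks), below the middle of its list, and the dTAG percentile 48.0 (45.0 to 52.9), while the DMSO lists stood at 76.1 and 82.1. Peaks upstream of the frame stood at percentile 78 in C29F4 and 84.9 in ab9110 DMSO, and peaks elsewhere in long repeats at 43.9 and 44.8.

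The summit sequences of the ChIP lists were rich in GC and CpG compared with long runs as a whole. The median GC content of summit windows was 63.7% in both DMSO lists and 64.7% with dTAG, against 41.8% (40.8 to 42.8%) for input peaks and 39.8% at every 500th base of the long runs. The median window held 11 CpG in both DMSO lists, 12 with dTAG and 2.00 in input. Outside long repeats the median C29F4 peak had 45.3% GC and 1.00 CpG. Positions upstream of the reverse transcriptase frame in runs of 5 to 8 kb had a median of 40.8% GC. That stretch includes the first frame where there is one. GC was not computed for the part before the first frame alone, where most ChIP summits lay.

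These sequences occur many times in the genome, which limits where a summit can be placed, since the authors wrote each read that maps to several places at 1 of its best locations, chosen at random. The 50 bases centred on the summit had a median of 1084 exact copies (988 to 1165) in C29F4 and 185 (42.0 to 627) in input. In the ab9110 lists the median was 638 (607 to 685) with DMSO and 958 (883 to 1071) with dTAG. Over 100 bases the medians were 163 in C29F4, 29 and 95 in the same ab9110 lists and 2.00 in input. Positions at every 500th base of the long runs without Y had more, with medians of 1519 copies of 50 bases and 271 of 100 bases, so high copy number was not particular to the summits. Of the C29F4 peaks in long repeats, 15.5% (14.2 to 16.9%), or 428, had 100 bases that occur once. Elsewhere in that list 89.0% had 50 unique bases, against 5.72% of the peaks in long repeats and 5.52% of positions at every 500th base of long runs.

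A 7-base motif, CCATCTT, searched on both strands, stands in the printed windows of C29F4 groups 1 to 4, dTAG group 1 and input group 1. The motif was counted for that reason, after the sequences were seen. Its share is therefore not separate from how common these sequences were among the summits. The motif matches the core of the recognition sequence of the zinc finger protein YY1. It stood in 65.3% (63.5 to 67.1%) of C29F4 windows in long repeats and in 13.5% (10.4 to 17%) of input windows there. For ab9110 the share was 49.7% (48.2 to 51.3%) with DMSO and 74.8% (72.3 to 77.1%) with dTAG. Outside long repeats it stood in 10.7% of C29F4, 6.93% of input and 7.55% and 5.48% of the ab9110 windows. At every 500th base upstream of the LINE-1 frames, a stretch that includes any first frame, it stood in 9.81% of windows. A match is a description of the letters and not of a bound factor.

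Overlap between the lists was higher in long repeats than elsewhere, except for input peaks in the dTAG list, where the intervals overlapped, and for ab9110 DMSO peaks in the dTAG list at a stricter q-value. The C29F4 and ab9110 DMSO lists come from separate libraries and antibodies and share no sample. Of the 2763 C29F4 peaks in long repeats, 2329 overlapped an ab9110 DMSO peak by at least 1 bp, or 84.3% (82.9 to 85.6%), against a background of 67.0% over all C29F4 peaks and 61.2% (60.1 to 62.2%) of those outside long repeats. An ab9110 dTAG peak overlapped 37.1% (35.3 to 38.9%), against a background of 21.7% and 16.5% (15.7 to 17.3%) outside. An input peak overlapped 2.86% (2.27 to 3.55%), against a background of 0.981% and 0.352% (0.236 to 0.505%) outside. The input list was the only one from chromatin without pulldown, and overlap with it was the rarest of the 3. It was also the smallest list and had the lowest depth. It held 2046 peaks of a median width of 207 bp, against 40813 in ab9110 DMSO and 16323 in ab9110 dTAG. These shares are therefore not on equal terms. With q under 0.001 in all lists, the shares of C29F4 peaks in long repeats were 81.6% in ab9110 DMSO, 18.5% in ab9110 dTAG and 0.245% in input, against 50.8%, 9.12% and 0.0621% outside, and for input these intervals overlapped. Where 50% of a peak had to be covered they were 77.7%, 15.3% and 0.398%, against 53.5%, 11.4% and 0.0728% outside.

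Seen from the ab9110 DMSO list, 57.5% of the 4159 peaks in long repeats overlapped a C29F4 peak, against a background of 18.1% and 13.7% outside. An ab9110 dTAG peak overlapped 26.2% (background 18.9%, outside 18.1%) and an input peak 2.38% (background 0.625%, outside 0.426%). The comparison with dTAG turned at q under 0.001, with 17.5% (16.1 to 19.1%) in long repeats and 22% (21.3 to 22.7%) outside, and was small where 50% of a peak had to be covered, with 15% (14 to 16.2%) and 13.9% (13.5 to 14.2%). The share with input was 0.191% at q under 0.001 and 0.601% with 50% covered, against 0.0661% and 0.191% outside. Of the 1331 ab9110 dTAG peaks in long repeats, 79.9% (77.6 to 82.0%) overlapped a C29F4 peak, against a background of 14.8% and 9.07% outside. An ab9110 DMSO peak overlapped 84.7% (82.7 to 86.6%) of them (background 46.8%, outside 43.4%) and an input peak 1.80% (background 0.643%, outside 0.540%). Of the 431 input peaks, 19% (15.4 to 23.1%) overlapped a C29F4 peak (background 5.28%, outside 1.61%), 23.7% (19.7 to 28.0%) an ab9110 DMSO peak (background 12.6%, outside 9.60%) and 5.57% (3.60 to 8.17%) an ab9110 dTAG peak (background 5.08%, outside 4.95%). The dTAG peaks that were called in long repeats thus lay mostly where DMSO peaks were. The dTAG list held fewer of them, but it was smaller as a whole. Peaks in long repeats were 8.15% of the ab9110 dTAG list and 10.2% of the ab9110 DMSO list.

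**Figure D3:**
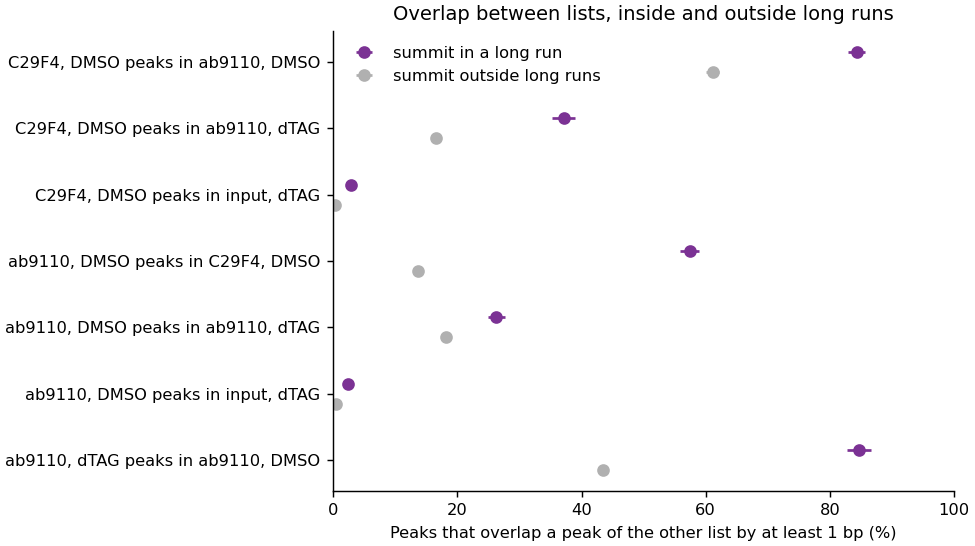
Share of peaks (percent, with exact 95% intervals) that overlap a peak of another list by at least 1 bp, for peaks in long repeats and for peaks outside them. C29F4 peaks in long repeats overlapped ab9110 DMSO in 84.3% and ab9110 dTAG in 37.1%, against 61.2% and 16.5% outside.

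By treatment, 47.6% (45.7 to 49.5%) of the C29F4 peaks in long repeats overlapped a peak in DMSO and not in dTAG, 36.7% (34.9 to 38.5%) in both, 0.362% in dTAG alone and 15.3% in neither ab9110 list. Outside long repeats these shares were 45.6%, 15.5%, 0.970% and 37.9%. The ab9110 DMSO peaks in long repeats that overlapped a dTAG peak were the taller ones, with a median fold of 7.66 (7.47 to 7.86, n = 1090 peaks) against 3.52 (3.44 to 3.54, n = 3069) for the rest, and 49.0 against 17 fragments at the summit. Outside long repeats the same medians were 3.48 and 3.22. In lists cut to equal size, 72.3% of C29F4 peaks in long repeats overlapped ab9110 DMSO and 29.7% ab9110 dTAG. The dTAG library was shallower, at a mean coverage of 1.23 against 2.11, and with 1 library each, treatment, library and depth cannot be told apart.

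Overlap differed by place in the element more than by run class. Of C29F4 peaks upstream of the LINE-1 frame, 89.6% (88.4 to 90.8%) overlapped an ab9110 DMSO peak and 39.8% (37.9 to 41.7%) an ab9110 dTAG peak, against 25.3% (19.8 to 31.5%) and 6.99% (4.05 to 11.1%) of those elsewhere in long repeats. Runs of 5 to 8 kb and above 8 kb had 84.5% and 81.6% in DMSO and 36.6% and 42.1% (35.6 to 48.8%) in dTAG. Inside and between genes the shares were 85.9% and 83.7% in DMSO and 40.7% and 35.7% in dTAG. Among the 428 C29F4 peaks with 100 unique bases at the summit, 76.4% (72.1 to 80.3%) overlapped in DMSO and 20.8% (17 to 25%) in dTAG. Among the 1524 with over 100 copies, the shares were 85.3% (83.4 to 87.0%) and 40.5% (38.0 to 43.0%). Overlap was therefore not limited to summits whose 100 bases have exact copies, and in dTAG it was lower for the unique ones. Unique here means without an exact copy, and near-identical copies were not counted. Only 158 C29F4 peaks in long repeats had 50 unique bases at the summit, fewer than these 428. Whether overlap differs for sequences without close copies was therefore not tested.

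Counted by run, 2579 long runs held a C29F4 summit, of which 89.9% (88.7 to 91.0%) also held an ab9110 DMSO summit, 40.4% (38.5 to 42.4%) an ab9110 dTAG summit and 6.32% (5.41 to 7.33%) an input summit. Of 1266 runs with a dTAG summit, 89.3% also held an ab9110 DMSO summit. Of 426 runs with an input summit, 38.3% (33.6 to 43.1%) also held a C29F4 summit and 52.1% (47.3 to 56.9%) an ab9110 DMSO summit. An ab9110 dTAG summit was held by 18.3% (14.8 to 22.3%) of them. More than 1 summit of the same list was found in 6.90% of the C29F4 runs, and the most was 3. No ChIP list had a summit in 71.3% of all long runs, against 32.1% (30.5 to 33.7%) of the runs with both frames.

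The length of the promoter's repeat unit separated elements that differed in the lists. Sequence was called tandem where it matched itself at a fixed distance, the period, with at least 70% identity over 600 bases. Of the C29F4 peaks in long repeats, 33.2% (31.4 to 34.9%) had a tandem summit, against 1.47% of positions at every 500th base, and their periods were 212 bases in 482 peaks, 208 in 252, 214 in 132 and 206 in 28. These were the 4 most frequent periods over all lists. In the ab9110 dTAG list the period was 212 in 539 of 620 tandem peaks (86.9%) and 208 in 19 (3.06%). In ab9110 DMSO the same periods were found in 686 and 442 of 1477 tandem peaks, or 46.4% and 29.9%.

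Runs also differed when they were classed by the period at their 5′ end, whether or not they held a peak. This step was added after the periods of the summits were seen and used the 4 periods most frequent there. Since most ChIP summits lay near that end, it describes largely the same sequence and is not separate support. Among runs of 5 to 8 kb with both frames, 827 had a 212-base period, and 84.4% (81.7 to 86.8%) of these held a C29F4 summit, 85.0% (82.4 to 87.4%) an ab9110 DMSO summit and 61.1% (57.6 to 64.4%) an ab9110 dTAG summit. Of the 452 with a 208-base period, the shares were 39.2% (34.6 to 43.8%), 62.6% (58.0 to 67.1%) and 2.88% (1.54 to 4.87%). The 154 with a 214-base period stood between them, at 67.5% (59.5 to 74.8%), 81.2% (74.1 to 87.0%) and 14.9% (9.71 to 21.6%). Of the 1613 that were not tandem, the shares were 38.0%, 54.1% and 16.5%. Input summits were in 6.29% (4.73 to 8.16%), 5.31% (3.43 to 7.80%), 4.55% (1.85 to 9.14%) and 4.59% (3.62 to 5.73%) of these 4 classes, with overlapping intervals. Run length and frame length were alike, with medians of 6768 and 6805 bp for the 212 and 208 classes and 1300 codons in both.

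**Figure D4:**
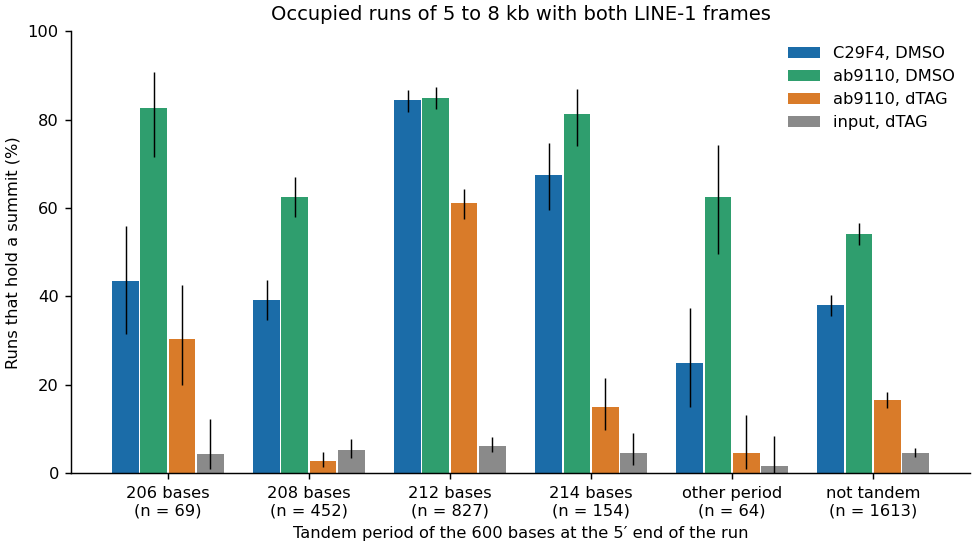
Share of LINE-1 runs of 5 to 8 kb with both frames that hold a summit of each list (y axis, percent, exact 95% intervals), by the tandem period at the 5′ end of the run (x axis, bases). The 212-base class is at 84.4% in C29F4 and 61.1% in ab9110 dTAG, and the 208-base class at 39.2% and 2.88%.

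The C29F4 peaks with the 212-base period had a median fold of 7.07 (6.89 to 7.30). All 482 overlapped an ab9110 DMSO peak, and 73.7% (69.5 to 77.5%) an ab9110 dTAG peak. Those with the 208-base period had a median fold of 3.13 (3.05 to 3.24), overlapped ab9110 DMSO in 80.2% (74.7 to 84.9%) and ab9110 dTAG in 2.78% (1.12 to 5.64%) of 252. The 132 with the 214-base period had a median fold of 3.61 (3.36 to 3.93) and overlapped them in 94.7% and 15.2% (9.51 to 22.4%). Since taller peaks overlapped more often, peaks were also compared within ranges of C29F4 fold, a step added after these values were seen. This does not match height in the ab9110 libraries. In ab9110 DMSO the median fold was 8.15 with the 212-base period and 3.34 with the 208-base period. Period and height in ab9110 were therefore not separated. At a C29F4 fold of 4 to 6, 72.7% (64.1 to 80.2%) of 128 peaks with the 212-base period overlapped a dTAG peak, against 0 of 40 with the 208-base period, which allows up to 8.81%, and 6 of 34 with the 214-base period. Peaks of that fold that were not tandem did so in 35.9% (31.5 to 40.4%), and those outside long repeats in 17% (15.4 to 18.6%). At a fold under 3, peaks in long repeats overlapped dTAG less often than peaks outside, at 9.13% (6.55 to 12.3%) against 19% (17.4 to 20.8%).

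**Figure D5:**
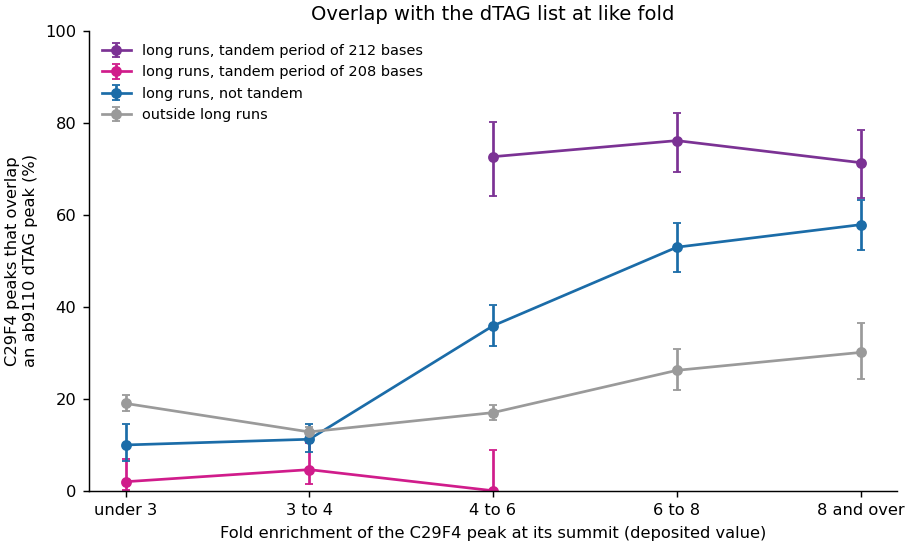
Share of C29F4 peaks (y axis, percent, exact 95% intervals) that overlap an ab9110 dTAG peak, by the C29F4 fold of the peak (x axis), for peaks in long repeats with a 212-base period, with a 208-base period and without one, and for peaks outside long repeats, drawn where a class has at least 20 peaks. At a fold of 4 to 6 the 212-base class is at 72.7%, the 208-base class at 0% and peaks outside at 17%.

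The sequence groups cut the same C29F4 peaks another way and are not separate support. Group 5 was added because its overlap with other lists differed. Groups 1, 2 and 3 overlapped ab9110 dTAG in 50.7%, 56.5% and 53.5% of their peaks and group 4 in 39.6%, against 1.44% of group 5. Their overlap with ab9110 DMSO was 94.9%, 98.1%, 98.2%, 97.2% and 77.7%, in the same order, and with input between 2.10% and 4.72%. A tandem summit was found in 39.6%, 56.1%, 18.4%, 0% and 83.5% of their peaks, with a median period of 212 in groups 1 to 3 and 208 in group 5. The dTAG list fell into 156 groups, of which the 3 largest held 66.9%. The input list was scattered, with 10.7% of its 431 peaks in the 3 largest of 123 groups.

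Single peaks show what these shares mean at named places. Of the C29F4 peaks in long repeats that overlapped ab9110 DMSO and neither ab9110 dTAG nor input, the strongest had a fold of 18.8 and lay on chromosome X from 76236442 to 76237438, between genes and 6857 bp from Gm14707. The next lay on chromosome 13 inside Aoah, which encodes an enzyme that inactivates bacterial lipopolysaccharide, at a C29F4 fold of 16 and 10.3 in ab9110 DMSO. Others of this kind were near Gm28801 (fold 13.7) and Gm39336 (13.3). All 4 of these summits lay upstream of a LINE-1 frame, 140 to 357 bases from the 5′ end of runs of 6410 to 6699 bp.

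Of those overlapping ab9110 DMSO and dTAG but not input, the strongest had a fold of 20.0 and lay on chromosome 4 from 14678536 to 14680753, inside Lrrc69. Its fold was 7.72 in ab9110 DMSO and 5.49 in ab9110 dTAG, and its window is printed as C29F4 group 1. The second lay inside Astn2, which encodes a membrane protein of the nervous system, with folds of 16.9, 13.7 and 4.95 in the same order, and is printed as group 2. The third lay 496 bp from the olfactory receptor gene Olfr461 on chromosome 6, with folds of 16.4, 8.82 and 5.91. Each list has its own background, so folds are set side by side and not compared between lists.

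The 3 strongest C29F4 peaks found in no other list were of another kind. They lay on chromosome 7 near Gm15501 (fold 13.0), on X near Itih5l-ps (11.9) and on chromosome 16 near Gm49627 (9.60). Their windows had 37.8%, 39.3% and 37.8% GC and 0 to 2 CpG, and the summits lay 2123 to 5270 bases from the 5′ end, the first upstream of the frame and the other 2 inside it. Low GC was thus shared by all 3, where the median of the list in long repeats was 63.7%.

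The 3 strongest dTAG peaks in long repeats lay near Gm4374 (fold 8.35), inside Lrriq1 (8.15) and near Itpa-ps3 (7.72). All 3 overlapped C29F4 and ab9110 DMSO peaks and lay 182 to 380 bases from the 5′ end. Those in Lrriq1 and near Itpa-ps3 had a 212-base period, and the one near Gm4374 matched itself best at that distance but with 67.0% identity, under the minimum. The 3 strongest input peaks lay near Gm5793 (fold 12.6), Gm37196 (11.2) and Gm7895 (10.4), overlapped no ChIP peak and had no tandem summit.

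By gene, 2036 genes held a long run wholly inside their span, 636 of them with a C29F4 summit and 150 with several. The most were found in Astn2, Tenm1, which encodes a teneurin of neuronal cell contacts, and Nell1, a secreted signalling protein, with 6 each. Astn2 held 5 ab9110 DMSO, 4 ab9110 dTAG and 1 input summit, Tenm1 7, 5 and 1, and Nell1 6, 3 and 0. Cadps2, Dlgap1, Agbl4 and Gabra3 had 5 C29F4 summits each and Pde4d, Dgkb and Thsd7a 4. These genes span 224 to 1504 kb and have 2 to 11 long runs each, and in Gabra3 the 5 peaks lay in 2 runs.

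Genes were then described by lists, counting a gene where a C29F4 peak in a long repeat lay in its span or within 50 kb. Over all 55413 annotated genes the background was 6.91%, and over protein-coding genes 6.58%. Of the 2-cell and zygotic activation genes, 2 of 41 counted (4.88%, 0.596 to 16.5%), BC080695 at a fold of 6.34 and Tcstv3 at 5.78. Of the germline and meiosis genes 1 of 30 counted (3.33%, 0.0844 to 17.2%), Tex11, a meiosis gene on X whose peak had a fold of 8.93. Of the core pluripotency genes 2 of 19 counted (10.5%, 1.30 to 33.1%), Tfcp2l1 at 4.09 and Nr0b1 at 3.30. Of the genes for H3K9 methylation and silencing, 0 of 30 counted, which allows up to 11.6%. A long run lay in reach of 65.9% of the 2-cell genes, against 32.3% of all genes, and 7.41% of the 27 2-cell genes with one counted, against 21.4% of all genes with one. That 7.41% rests on 2 genes and no interval was computed for it, so no difference is read from it. A long run lay in reach of 30.0%, 15.8% and 20.0% of the other 3 lists. All the intervals over whole lists include the background, and the 5 peaks named overlapped ab9110 DMSO and not ab9110 dTAG.

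Over whole lists, the receptor gene families and the very long genes were above the background. Of the olfactory receptor genes 166 of 1135 counted (14.6%, 12.6 to 16.8%), with a peak of fold 16.4 near Olfr461 and Olfr460 and one of 12.4 near Olfr8, Olfr1352, Olfr1353 and Olfr1354. Of the vomeronasal receptor genes 52 of 329 counted (15.8%, 12 to 20.2%), the strongest in Vmn2r57 at 10.8. Of the genes over 500 kb, 138 of 230 counted (60%, 53.4 to 66.4%), among them Astn2, Iqcm (15.6), Fam19a1 (14.5), Dab1 (13.7), Ntrk3 (13.2), Fgf13 (12.8), Csmd1 (12.5) and Pde4d (11.8). Long runs were more common there as well: 57.1% of olfactory and 68.1% of vomeronasal receptor genes and 90.0% of genes over 500 kb had one in reach, against 32.3% of all genes. Among genes with a run in reach, 25.6%, 23.2% and 66.7% had a C29F4 peak in one, against 21.4% of all such genes. Among protein-coding genes, the only type in these lists, it was 23.2%, so the receptor families were near that share. The number of runs per gene was not taken into account, which bears most on the genes over 500 kb. Neighbouring genes share peaks, so genes of a cluster are not independent.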

How the data were processed

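HA ChIP-seq and input libraries of EHMT2-dTAG mESCs were used as 4 deposited peak lists, and groups follow the antibody, treatment and library type in the labels. The other input libraries and separate C29F4 replicate lists were not analysed here. The authors trimmed reads, aligned them to mm10 with STAR 2.7.10, writing a multimapping read once at a random best location, removed duplicates with Picard 2.26.0 and reads in high-signal blacklist regions, and called peaks with MACS2 2.2.6, keeping q-values under 0.05. A random placement spreads reads of near-identical copies over all of them, so a peak can stand at a copy that was not bound. The deposited fold is a ratio, fragments at the summit over the local background, each with a small constant added. The authors' caller gives −log10 p-value and −log10 q-value at the summit as well. The deposited score restates the p- or q-value and was not used. Whether a control entered the calls is not given in the sources used here.

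Soft-masked runs were read from the RefSeq GRCm38 sequence and genes from GENCODE M21. The program behind the mask is not given in the sources used here. Open reading frames, exact copies (50 or 100 bases), tandem periods (30 to 300 bases) and summit windows (100 bases on each side) were computed with Python 3.11.15, NumPy 2.4.6, pandas 2.3.3, SciPy 1.17.1 and blastn 2.17.0. Printed windows are the highest-fold member of a group off exons and off chromosome 18, with no exact copy there. Fragments and background were rebuilt from fold and p-value and matched within 0.01 in −log10 p for 100% of ChIP peaks. Scripts were tested on simulated data. No test was run between lists.

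Named peaks were the 5 C29F4 peaks of highest fold shared with ab9110 DMSO alone, the 3 shared with both ab9110 ChIP lists, the 3 in no other list, and the 3 strongest dTAG and input peaks, of which 1 is not reported here. Named genes were the 10 with the most C29F4 peaks in long repeats, and up to 8 a list by fold. The members and lists were chosen with earlier results of these data known, and leaving out chromosome Y, the first frame, the tandem period of run ends (the 4 most frequent at summits were used), fold ranges, groups 4 and 5, the motif and overlaps outside long repeats under other settings were chosen after seeing the data.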

Additional observations from a re-analysis of the deposited data

How the results depend on the processing

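No paired analysis was possible because the C29F4 replicates are merged in 1 list, the other conditions have 1 library each, and no result comes from a test. For the same reason no replicate could be left out. Of 151 values recomputed under other settings, 61 stayed within their counting interval and 90 moved. None moved with summits replaced by midpoints or with peaks overlapping input left out, which were recomputed for the share of summits in long repeats alone. With chromosome Y left out, chosen after seeing the data, none moved either. That setting was recomputed for the shares in long repeats, by length, near run ends and between genes. Few ChIP peaks overlapped input and few peaks lay on Y, so little could change there. The causes were not tested. With q under 0.01, the share of summits in long repeats was 26.1% in C29F4, 13.5% and 8.94% in the ab9110 lists (DMSO, dTAG) and 31% in input. The share within 500 bp of a run end was 68.1% for ab9110 DMSO and 63.2% for dTAG. The share upstream of the frame was 97.8%, 98.1% and, for input, 47.7%. Median fold percentiles were 81.5, 48.7 and 59.3 for ab9110 DMSO, dTAG and input, and the median copy number of input was 32.5. C29F4 overlap was 82.7% with DMSO, 29.1% with dTAG and 1.10% with input, ab9110 DMSO overlap 68.4% with C29F4, 24.9% with dTAG and 0.897% with input, and dTAG overlap with DMSO 93.2%.

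With q under 0.001, the share in long repeats was 27.5% for C29F4, 17.7% for ab9110 DMSO and 33.5% for input, the share above 8 kb 3.17% for input, near run ends 69.6%, 64% and 15.9% for ab9110 DMSO, dTAG and input, and intergenic 67.0% for ab9110 DMSO and 66.7% for input. Upstream shares were 96.2%, 99.1%, 99.4% and 48.1% in the order C29F4, ab9110 DMSO, dTAG, input. Fold percentiles were 82.1, 48.0 and 39.6 and copy numbers 700, 1091 and 7.0 for ab9110 DMSO, dTAG and input. C29F4 overlap was 81.6%, 18.5% and 0.245% with DMSO, dTAG and input, ab9110 DMSO overlap 76.9%, 17.5% and 0.191% with C29F4, dTAG and input, and dTAG overlap with DMSO 96.9%. The overlap of C29F4 with dTAG thus fell from 37.1% to 18.5%, where the stricter lists hold fewer peaks.

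With runs joined across up to 20 unmasked bases, the share in long repeats was 28.1%, 12.1%, 9.35% and 25.7%, the share above 8 kb 13.6%, 14.7%, 15% and 13.1% (C29F4, ab9110 DMSO, dTAG, input), and the share near run ends 49.6%, 55.1% and 50.2% for the ChIP lists. With a minimum of 6 kb, 9.69% of ab9110 DMSO and 18.6% of input summits counted. With the boundary at 7 kb, 27.7%, 27.0%, 35.1% and 22% lay in the longer class, and with a distance of 1 kb, 82.1%, 81.8%, 82.6% and 40.8% near a run end. Against protein-coding genes alone, 75.1%, 75.8%, 74.2% and 80.7% were intergenic. Requiring 50% of a peak to be covered, C29F4 shares were 77.7%, 15.3% and 0.398% (DMSO, dTAG, input) and ab9110 DMSO shares 50.1%, 15% and 0.601% (C29F4, dTAG, input). In lists of equal size they were 72.3%, 29.7% and 3.88%, then 85.9%, 38.7% and 3.91%, and 82.0% for dTAG in DMSO. Ranked by −log10 q, C29F4 stood at percentile 81.7. With a frame of at least 1000 codons, 95.1% of ab9110 DMSO summits lay upstream. Over 100 bases the copy numbers were 163, 29, 95 and 2.00. Depth limits the dTAG and input lists most, where the median summit held 12 and 9.0 fragments.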

Other observations

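C29F4 summits in long repeats were spread over the chromosomes at 26.6 per Mb of long repeat on chromosome 14 to 47.2 on chromosome 8, with 39.2 on X. Among runs with both frames, 57.7% (52.3 to 63.0%) of 345 on X and 50.9% (49.1 to 52.7%) of 3064 on autosomes held a C29F4 summit. For ab9110 DMSO the shares were 71.6% (66.5 to 76.3%) and 65.2% (63.5 to 66.9%), for ab9110 dTAG 30.7% (25.9 to 35.9%) and 26% (24.4 to 27.6%), and for input 5.80% (3.58 to 8.81%) and 5.06% (4.31 to 5.90%). Runs with a retroviral frame held a C29F4 summit in 0.570% (0.261 to 1.08%), an ab9110 DMSO summit in 5.70% (4.60 to 6.96%) and an ab9110 dTAG summit in 2.28% (1.60 to 3.14%) of 1580. The small class with a 206-base period had 69 runs with both frames, of which 43.5% (31.6 to 56.0%) held a C29F4, 82.6% (71.6 to 90.7%) an ab9110 DMSO and 30.4% (19.9 to 42.7%) an ab9110 dTAG summit. Runs with a period other than 206, 208, 212 or 214 held them in 25% (15 to 37.4%), 62.5% (49.5 to 74.3%) and 4.69% (0.977 to 13.1%) of 64.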
